A study of Homo sapiens with 6 samples.

Results

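RNA pol II occupancy was examined at the 7 genes of the urea cycle, NAGS, CPS1, OTC, ASS1, ASL, ARG1 and ARG2, in HepG2 cells with and without SHP-1. The members were the regions of the 4 lists to which the authors had assigned 1 of these gene symbols, 169 of 271336 regions in all. The lists came from ChIP-seq: an antibody pulls a protein down together with the DNA cross-linked to it, the DNA is sequenced, and stretches of the genome where reads exceed those of unselected input DNA are called as occupied regions. There was 1 library for each antibody and cell line, so that none of the values below has a replicate check, and differences are given as sizes without a p-value. The lists hold no read counts, and the depth of the libraries is therefore unknown.

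HepG2 is an established human cell line derived from a liver tumor. Both cell lines were untreated. SHP-1 WT cells were HepG2 cells labelled as the CRISPR control, and whether they had received a nontargeting guide or no guide is not given for these libraries. SHP-1 KO cells were HepG2 cells in which PTPN6, the gene of the protein tyrosine phosphatase SHP-1, had been cut with guides against exons of the phosphatase domain. The KO cells were grown from single cells, so that an effect of SHP-1 and a difference between clones cannot be told apart. An antibody to the C-terminal domain of RPB1, the largest subunit of RNA pol II, and an antibody to the same domain phosphorylated on Ser2 were used. RPB1 marks RNA pol II at promoters and in gene bodies, while phospho-Ser2 RPB1 is the form found on elongating RNA pol II and is typically highest toward the 3′ end of genes. In a bulk culture, fewer cells with RNA pol II at a site and less RNA pol II at the site in each cell cannot be told apart.

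The urea cycle turns toxic ammonia into urea and is completed in the hepatocytes of the liver. NAGS makes N-acetylglutamate, the activator without which CPS1 is inactive. CPS1 and OTC work in mitochondria, where CPS1 makes carbamoyl phosphate from ammonia and bicarbonate and OTC joins it to ornithine to give citrulline. In the cytosol, ASS1 joins citrulline to aspartate and ASL splits the product into arginine and fumarate. ARG1, the liver arginase, then releases urea and returns ornithine, and ARG2 is the mitochondrial arginase found mainly outside the liver. HepG2 cells have long been described as lacking a complete urea cycle, with ARG1 and OTC as the steps that are weak or missing.

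Of the 46045 RPB1 regions of SHP-1 WT cells, 38 were assigned to 6 of the 7 genes, beside 57.7% of 20007 coding genes with at least 1 region. Regions annotated as promoter, which means near the start of any transcript of the gene, were assigned to 5 of 7, beside 51.5% of coding genes. In SHP-1 KO cells, 34 of 41605 RPB1 regions were assigned to 5 of the 7 genes, beside 55.4% of coding genes, with a promoter region at 4 of 7, beside 50.1%. Phospho-Ser2 RPB1 regions numbered 57 of 102674 in WT cells and were assigned to 4 of the 7 genes, beside 51.8% of coding genes. These 4 genes also had a promoter region, beside 37.3% of coding genes. In KO cells, 40 of 81012 phospho-Ser2 RPB1 regions were assigned to 4 of the 7 genes, beside 47.2%, and 4 of 7 had a promoter region, beside 33.5%. The 4 genes were NAGS, ASS1, ASL and ARG2 in both phospho-Ser2 lists. ARG1 had no region in any of the 4 lists, and CPS1 and OTC had weak RPB1 regions only, all of them outside their main transcripts. A missing region means that nothing passed the authors' peak calling, not that RNA pol II was absent.

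As a check of the labelled cell type, 8 markers of hepatocytes and hepatoma cells were counted, among them ALB, AFP and APOB. All 8 had a region in the RPB1 list of WT cells and in both phospho-Ser2 lists, and 7 of 8 in the RPB1 list of KO cells. The exception, APOA1, was covered over 100% of its length there by regions assigned to other genes. PTPRC, VWF, COL1A1 and COL3A1, markers of blood cells, endothelium and fibroblasts, had no region in any list, while CD68 and PECAM1 had regions in all 4. PTPN6 itself had a promoter RPB1 region with a fold enrichment over input of 24.0 in WT and 17.2 in KO cells, which does not test the labels, since a cut in the coding exons need not remove RNA pol II.

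The 4 occupied genes each carried an RPB1 region over the start of their main transcript, taken here as the Ensembl canonical transcript of GENCODE release 44 on hg38. NAGS, which makes the activator of CPS1, lies at chr17:44004622-44009068 (forward strand) and is the shortest of the 7. Its main RPB1 region in WT cells (44004165 to 44008304) reached a fold enrichment of 27.4, with the summit in exon 1, 53 bp after the start. KO cells had separate regions along this stretch, reaching 14.4 at the start (44004089 to 44005762), 7.86 (44005887 to 44007105) and 8.43 (44007362 to 44008745). The WT region at the NAGS start ranked 6235 of 46045 in its list and the KO region 8446 of 41605. PYY, a peptide hormone gene on the reverse strand, has its 5′ end at 44004469, within the start regions of both cell lines. The 2 genes run apart from there, and their RNA pol II cannot be told apart at these starts. A further region lay just beyond the 3′ end in both cell lines, with a fold enrichment of 9.55 in WT and 6.09 in KO cells. TMEM101, on the reverse strand, runs toward NAGS and ends at 44011188, beyond these regions. ChIP does not tell the strands apart. NAGS with 3 kb on each side held 8 RPB1 regions in each cell line, against 3 (WT) and 4 (KO) assigned to it. NAGS was thus occupied from end to end, with 90.1% of its length covered by RPB1 regions in WT and 84.2% in KO cells.

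ASS1, the enzyme of argininosuccinate synthesis, lies at chr9:130444961-130501274 (forward strand). The RPB1 region over its start reached a fold enrichment of 29.0 in WT cells (130444452 to 130445821) and of 14.3 in KO cells (130444568 to 130445738). Both summits lay in intron 1. A second strong region was found close to the 3′ end, with its summit in intron 13 and a fold enrichment of 25.2 in WT cells (130498781 to 130500972) and of 18.8 in KO cells (130499022 to 130500220). In KO cells this 3′ region, at rank 6493 of 41605, stood above the region at the start, at rank 8527. Between them lay weaker regions with a fold enrichment of 3.50 to 7.51 in WT and 3.65 to 6.33 in KO cells. In total, ASS1 had 16 RPB1 regions in WT and 9 in KO cells, and 7 of the 16 were overlapped by a KO region.

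ASL, the argininosuccinate lyase, lies at chr7:66075819-66093576 (forward strand). It had the strongest RPB1 region of the 7 genes, at its start, which reached a fold enrichment of 68.1 and rank 492 of 46045 in WT cells (66075327 to 66076691). The KO region (66075454 to 66076973) reached 27.8 and rank 3406 of 41605. Downstream of the start, a region reached 13.0 in WT cells, with the summit in intron 11 (66088541 to 66089885), and 7.92 in KO cells, with the summit in intron 10 (66088430 to 66089824). Further RPB1 regions continued past the 3′ end of ASL, up to 66100507 in WT and 66100339 in KO cells. This stretch lies within ENSG00000249319, an annotated coding gene on the same strand that overlaps the last 5816 bp of ASL. The regions with the summit in introns 10 and 11 lie within it too. RNA pol II from both genes cannot be told apart at these sites. ASL had 18 RPB1 regions in KO and 14 in WT cells, and these covered 36.5% and 30.0% of its length.

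ARG2, the mitochondrial arginase, lies at chr14:67619920-67651708 (forward strand). It had a single RPB1 region in each cell line, over the start. The WT region (67619455 to 67620520) reached a fold enrichment of 23.1, with the summit in the 5′ UTR of exon 1, 24 bp after the start. The KO region (67619441 to 67620216) reached 14.9, with the summit 29 bp after the start. No further RPB1 region was called along the gene, and the covered share was 1.89% in WT and 0.934% in KO cells.

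**Figure D1:**
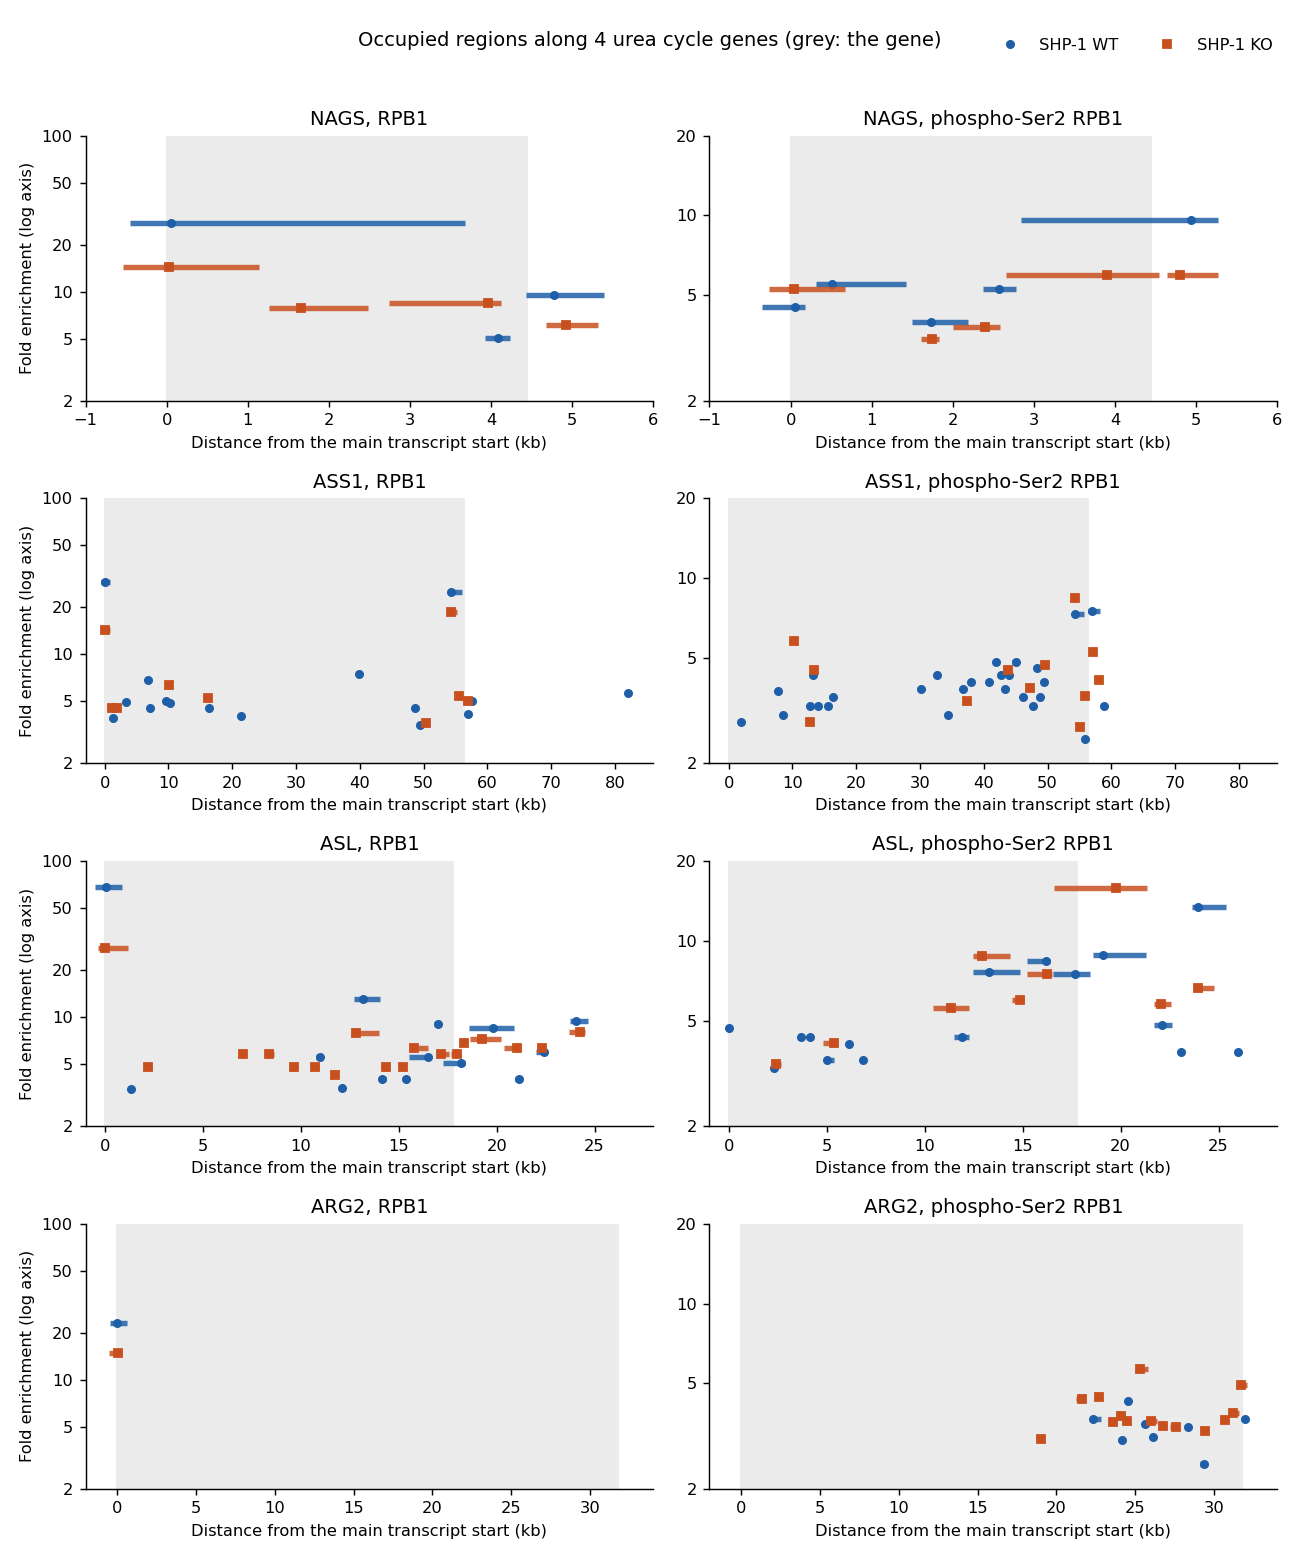
Each horizontal bar is an occupied region and each point its summit, by distance from the main transcript start in kb (x axis) and fold enrichment over input on a log axis (y axis), for SHP-1 WT (blue circles) and SHP-1 KO cells (orange squares). RPB1 (left) was highest at the start of NAGS, ASS1, ASL and ARG2 in WT cells, at 27.4, 29.0, 68.1 and 23.1. The strongest phospho-Ser2 RPB1 region (right) lay in the later part of each gene or beyond its end. Weaker phospho-Ser2 RPB1 regions lay in the earlier part of NAGS, ASS1 and ASL too.

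The remaining genes had no region inside their main transcript in any list. CPS1, the mitochondrial carbamoyl phosphate synthetase, spans 122509 bp at chr2:210556599-210679107 (forward strand). WT cells had a pair of RPB1 regions assigned to it. The first (210477654 to 210477864) reached a fold enrichment of 3.07 and ranked 45610 of 46045. It lay at an upstream alternative start of CPS1 that is close to the start of LANCL1, a gene on the reverse strand. The second (210541291 to 210541524) reached 3.19 and ended 15075 bp before the main start. No KO region was assigned to CPS1, but a KO region (210477579 to 210477870) that reached 6.33 covered all of the first WT region and had been assigned to LANCL1. The absence of CPS1 from the KO list therefore rests in part on which neighbor a region was assigned to. LANCL1 itself had an RPB1 region with a fold enrichment of 37.7 in WT and 24.4 in KO cells.

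OTC, the ornithine transcarbamylase, spans 68843 bp at chrX:38352604-38421446 (forward strand). Its RPB1 regions of WT cells lay upstream and reached a fold enrichment of 3.83 (38343178 to 38343425) and 4.51 (38343962 to 38344191). KO cells had regions that overlapped both, reaching 3.77 (38342770 to 38343277) and 4.01 (38343749 to 38344140). The nearest edge to the OTC start was 8413 bp away in WT and 8464 bp in KO cells, and the annotation placed all 4 in an intron. They lie within ENSG00000250349, an annotated coding gene on the same strand that spans OTC, so that their link to OTC rests on the assignment alone. No phospho-Ser2 RPB1 region was called within 448770 bp of the OTC start in WT or within 448778 bp in KO cells.

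ARG1, the liver arginase, lies at chr6:131573226-131584329 (forward strand). The nearest RPB1 region to its start was 54537 bp away in WT and 54614 bp away in KO cells, and both were assigned to MED23, a Mediator subunit gene on the reverse strand that overlaps 10364 bp of ARG1. The promoter region of MED23 had a fold enrichment of 16.9 in WT and 13.2 in KO cells. No region of MED23 reached ARG1 in any list. The nearest phospho-Ser2 RPB1 region was 64028 bp from the ARG1 start in WT and 29746 bp in KO cells.

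**Figure D2:**
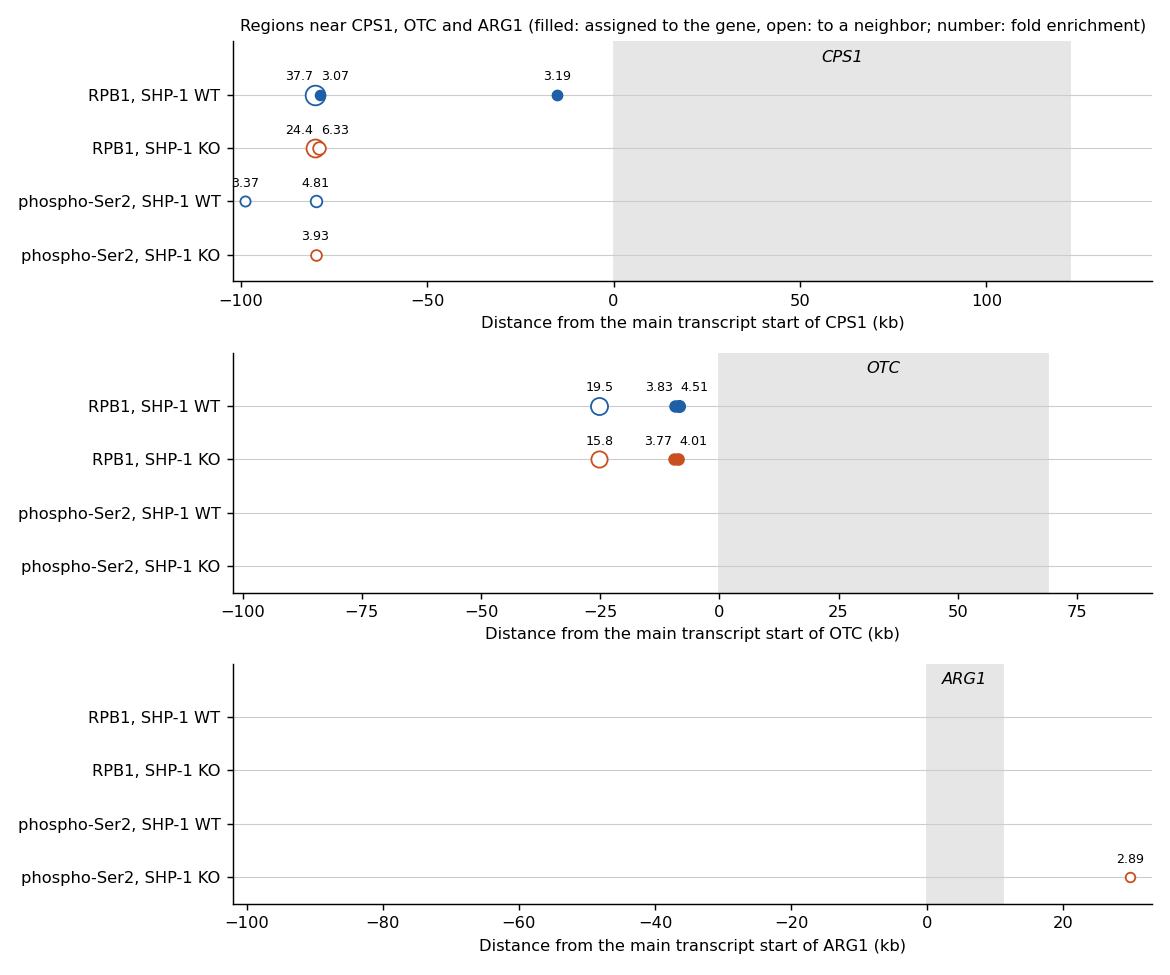
Regions from 100 kb before to 20 kb after CPS1, OTC and ARG1 are shown by distance from the main transcript start in kb (x axis), with 1 row for each list (y axis). Circle size grows with fold enrichment, which is also printed, and filled circles were assigned to the gene itself and open circles to a neighbor. The gene bodies (grey) hold no region in the 4 lists, and the filled circles near CPS1 and OTC lie between 3.07 and 4.51.

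The promoters of the 4 occupied genes differed in sequence from those of CPS1, OTC and ARG1. RefSeq promoters of GRCh38.p14, from 250 bases before to 50 bases after a start, were available for all 7 genes, with 10 promoters in total, although none of the 3 CPS1 promoters is at the main start used above. The promoters of NAGS, ASS1, ASL and ARG2 had a GC content of 64.3% to 78.3% and held 15 to 31 CpG dinucleotides. Those of CPS1, OTC and ARG1 had a GC content of 36.7% to 45.3% and held 1 to 3 CpG. The median over all 35116 promoters was 58.7% GC and 14 CpG. Among all promoters with at least 15 CpG, 72.8% had the start inside an RPB1 region of WT cells, against 2.91% of those with at most 3 CpG, limits that were taken from the members after their values were seen. In KO cells these shares were 70.1% and 2.50%.

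Promoters were searched on both strands for motifs of general and liver transcription factors, counting overlapping matches. The letters TATAAA, which bind the TATA-binding protein, were held by 11.5% of all 35116 promoters. The letters CCAAT, bound by the factor NF-Y, were held by 34.6%. The letters GGGCGG, bound by Sp1 and known as the GC box, were held by 45.0%. The cAMP response element TGACGTCA was held by 1.85%. For the liver factors, TTGCNNAA of the C/EBP family was held by 10.5% and CAAAGTCCA of HNF4A by 0.384%. Below, 170 bases before and 30 bases from the start are shown in the direction of transcription, with matches on either strand in capitals. ASL and ARG2 are shown as the strongest and weakest of the 4 occupied starts in WT cells, NAGS as the gene occupied along its whole length, ARG1 as a start without a region, and the upstream CPS1 start as the site of the region assigned differently in the 2 cell lines. Their positions are chr7:66075649-66075848 for ASL, chr14:67619750-67619949 for ARG2, chr17:44004452-44004651 for NAGS, chr6:131573056-131573255 for ARG1 and chr2:210477515-210477714 for CPS1, all on the forward strand.
ASL: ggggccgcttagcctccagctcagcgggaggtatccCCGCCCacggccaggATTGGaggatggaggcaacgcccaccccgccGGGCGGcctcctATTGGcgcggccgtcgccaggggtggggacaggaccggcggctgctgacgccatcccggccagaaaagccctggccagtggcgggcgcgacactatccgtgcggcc
ARG2: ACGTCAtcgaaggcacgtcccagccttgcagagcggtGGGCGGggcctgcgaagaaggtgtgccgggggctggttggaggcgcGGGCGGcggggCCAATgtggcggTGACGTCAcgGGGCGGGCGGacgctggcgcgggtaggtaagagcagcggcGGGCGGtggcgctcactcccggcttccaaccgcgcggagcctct
NAGS: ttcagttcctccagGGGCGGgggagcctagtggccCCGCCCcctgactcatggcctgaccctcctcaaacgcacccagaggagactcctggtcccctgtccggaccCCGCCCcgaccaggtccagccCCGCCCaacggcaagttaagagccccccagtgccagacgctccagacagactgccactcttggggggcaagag
ARG1: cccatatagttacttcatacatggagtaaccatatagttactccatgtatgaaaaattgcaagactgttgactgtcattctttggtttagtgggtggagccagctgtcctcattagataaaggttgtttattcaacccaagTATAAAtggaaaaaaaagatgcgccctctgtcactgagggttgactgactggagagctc
CPS1: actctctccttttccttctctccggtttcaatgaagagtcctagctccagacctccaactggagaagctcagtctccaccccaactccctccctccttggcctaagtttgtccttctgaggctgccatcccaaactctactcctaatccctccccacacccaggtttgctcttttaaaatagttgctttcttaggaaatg
In ASL, 4 GC boxes and 2 CCAAT boxes were found in the whole searched window of 300 bases. ARG2 had 5 GC boxes, of which a pair overlap, 2 CCAAT boxes and 2 matches to the cAMP response element, 172 and 64 bases before the start. The NAGS promoter held 5 GC boxes and no other match. The ARG1 promoter held a TATA box 29 bases before the start as its single match, and the CPS1 promoter shown held no match. ASS1, which is not shown, had 2 GC boxes in each of its 2 promoters, while OTC had a TATAAA match 192 bases before the start. Neither TTGCNNAA nor CAAAGTCCA was found in any of the 10 promoters. These matches are letters in the reference sequence, and none of them was tested for binding.

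RPB1 at the strongest promoter region was then compared between the cell lines, as the ratio of the fold enrichment in KO to that in WT cells. ASL had the lowest ratio, 0.408, followed by ASS1 at 0.491, NAGS at 0.528 and ARG2 at 0.646. The ratio was below 1 for most genes, since the median over 11250 genes with a promoter region in both lists was 0.727, with quartiles of 0.596 and 0.894. The ASL ratio was at or above that of 4.12% of these genes, the ASS1 ratio of 9.89%, the NAGS ratio of 14.5% and the ARG2 ratio of 34.2%. After division by the median, the ratios were 0.562 for ASL, 0.676 for ASS1, 0.727 for NAGS and 0.889 for ARG2. ASL alone was lower by at least 1.5 times after this division, 1 of 4 genes beside 9.29% of all genes, and 0 of 4 was higher by as much, beside 10.3%. The 4 values all lay below the median, but fold enrichment depends on the depth of the library and of its input, which the lists do not give.

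RPB1 was also compared at the gene end, by the strongest region with its summit within 3 kb of it. The KO to WT ratio was 0.747 for ASS1, 0.802 for ASL and 0.883 for NAGS, beside a median of 0.938 over 1981 coding genes. At the main start, taken as a summit within 1 kb, the median over 7946 coding genes was 0.714. The strongest end regions of ASL and NAGS were not the same site in both cell lines, and those of ASL also lie within ENSG00000249319. At the site of the strongest WT region, the overlapping KO region had 5.81 against 9.01 in ASL and 6.09 against 9.55 in NAGS. In ASS1 the site was the same, but the KO summit lay just over 2 kb before the gene end. With a window that began 2 kb before the end, a weaker KO region was taken in its place and the ASS1 ratio was 0.214, below the 0.491 of its start, so that the comparison of start and end turned with the window. With the window of 3 kb, the end reached 0.866 of the start in WT and 1.32 in KO cells in ASS1. In NAGS these ratios were 0.349 and 0.584, and in ASL 0.132 and 0.260. The same direction was seen in the median over coding genes with both, 0.210 in WT and 0.275 in KO cells, so that it was not particular to the urea cycle genes. An end above the start was seen in 5.81% of these genes in WT and 6.20% in KO cells.

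**Figure D3:**
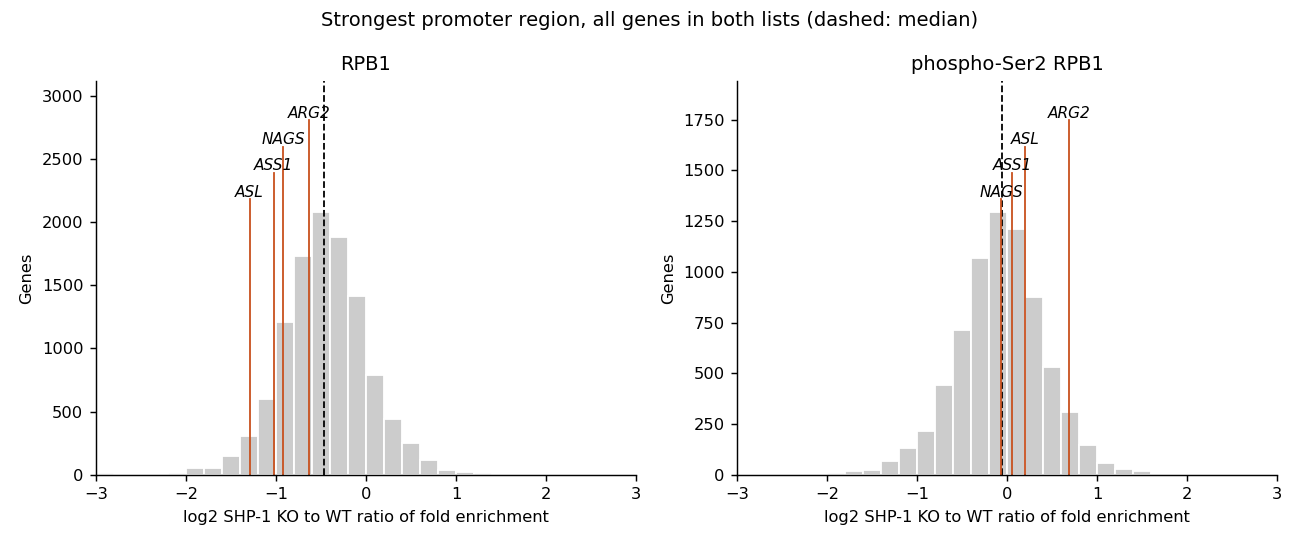
Bars count genes (y axis) by the log2 ratio of fold enrichment in SHP-1 KO to SHP-1 WT cells at the strongest promoter region (x axis), for RPB1 (left, 11250 genes) and phospho-Ser2 RPB1 (right, 7191 genes), and orange lines mark the urea cycle genes. For RPB1 all 4 lie left of the dashed median ratio of 0.727, while for phospho-Ser2 RPB1 they lie on both sides of the median ratio of 0.958.

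Phospho-Ser2 RPB1 was next placed along the 4 genes. Its regions had the summit in the second part of the gene, from the midpoint on, or beyond the end in 39 of 57 cases in WT cells (68.4%) and in 33 of 40 in KO cells (82.5%). Over regions assigned to all coding genes these shares were 53.4% and 53.7%. For RPB1 the members' shares were 55.3% in WT and 58.8% in KO cells, against 33.2% and 32.1% over all coding genes. These RPB1 shares include the regions of CPS1 and OTC, all of them upstream. The genes differed in WT cells. The phospho-Ser2 share was above the RPB1 share in ASS1 (20 of 28 against 7 of 16) and ARG2 (8 of 8 against 0 of 1). It was below the RPB1 share in ASL (9 of 16 against 12 of 14) and NAGS (2 of 5 against 2 of 3). Some of the counted regions lie within other genes too, VTI1B on the reverse strand at ARG2 and ENSG00000249319 at ASL. These regions cannot be credited to the members alone. Regions of 1 gene are neighbors on the same DNA and share a library, so these shares are a description.

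At NAGS, 5 regions of phospho-Ser2 RPB1 were called in each cell line. The strongest in WT cells (44007458 to 44009891) reached 9.61, with its summit beyond the 3′ end, and stood at rank 2324 of 102674. In KO cells the same stretch was called as a pair of regions with a fold enrichment of 5.97 each. TMEM101 runs toward this stretch on the reverse strand, so that RNA pol II beyond the NAGS end cannot be credited to NAGS alone. Over the NAGS start itself the fold enrichment was 4.50 in WT and 5.26 in KO cells. The KO region also overlapped a WT region that began after the start (44004937 to 44006040) and reached 5.51, so that the strongest value within 1 kb of the start was 5.51 in WT and 5.26 in KO cells, the other direction. The covered share was 89.8% in WT and 73.4% in KO cells.

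At ASS1, phospho-Ser2 RPB1 gave 28 regions in WT and 12 in KO cells, and a KO region overlapped 8 of the 28. None lay over the start in either cell line. The nearest region edge was 1575 bp from the start in WT and 10175 bp in KO cells. The strongest regions lay around the 3′ end. Within the gene, a region reached a fold enrichment of 7.34 in WT (130498985 to 130500698) and 8.39 in KO cells (130499123 to 130499523), both with the summit in intron 13. Just beyond the gene end, a region reached 7.52 in WT and 5.24 in KO cells. The covered share of ASS1 was 19.8% in WT and 7.27% in KO cells. At a −log10 q-value of 5 or more the regions were nearly as many in both, 9 of the 28 in WT and 8 of the 12 in KO cells.

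At ASL, phospho-Ser2 RPB1 gave 16 regions in WT and 9 in KO cells. A region over the start (66075688 to 66075895) reached 4.70 in WT cells, while in KO cells the nearest region edge was 2274 bp away. The strongest KO region (66092428 to 66097183) was 4756 bp long, spanned the 3′ end of the gene and reached 15.8, at rank 424 of 81012. In WT cells this stretch was covered by a region with a fold enrichment of 7.52 (66092360 to 66094234) and a region with 8.81 (66094427 to 66097102). The strongest WT region (66099481 to 66101224) lay further downstream and reached 13.5, against 6.62 for the KO region there. The strongest phospho-Ser2 RPB1 region thus lay nearer to the end of ASL in KO than in WT cells. Both summits lay beyond that end and within ENSG00000249319, so that they cannot be credited to ASL alone. The covered share of ASL was alike, 44.4% in KO and 41.2% in WT cells. ASLP1, an unprocessed copy of ASL on chromosome 22, had 3 phospho-Ser2 RPB1 regions in each cell line, and whether reads were shared between the copies is not known.

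At ARG2, phospho-Ser2 RPB1 gave 8 regions in WT and 14 in KO cells, and it was the gene with more such regions in KO cells. All had the summit in the second part of the gene or beyond its end, the nearest to the start with its edge 22216 bp away in WT and 18874 bp in KO cells. Fold enrichment ranged from 2.48 to 4.30 in WT and from 3.09 to 5.65 in KO cells. A KO region overlapped 7 of the 8 WT regions, with a median KO to WT ratio of 1.23, beside 1.00 over 53584 overlapped regions of the whole list. The covered share was 7.40% in WT and 15.5% in KO cells. No phospho-Ser2 RPB1 region overlapped the RPB1 region at the ARG2 start in either cell line. VTI1B, on the reverse strand, overlaps the last 4624 bp of ARG2, and ChIP does not tell the strands apart. No region assigned to VTI1B overlapped ARG2 in any list, but the assignment does not show which gene the RNA pol II was on. Regions in that stretch and just beyond the ARG2 end therefore cannot be credited to ARG2 alone. The KO region nearest to the ARG2 start also lies within ENSG00000286861, an annotated lncRNA on the reverse strand.

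**Figure D4:**
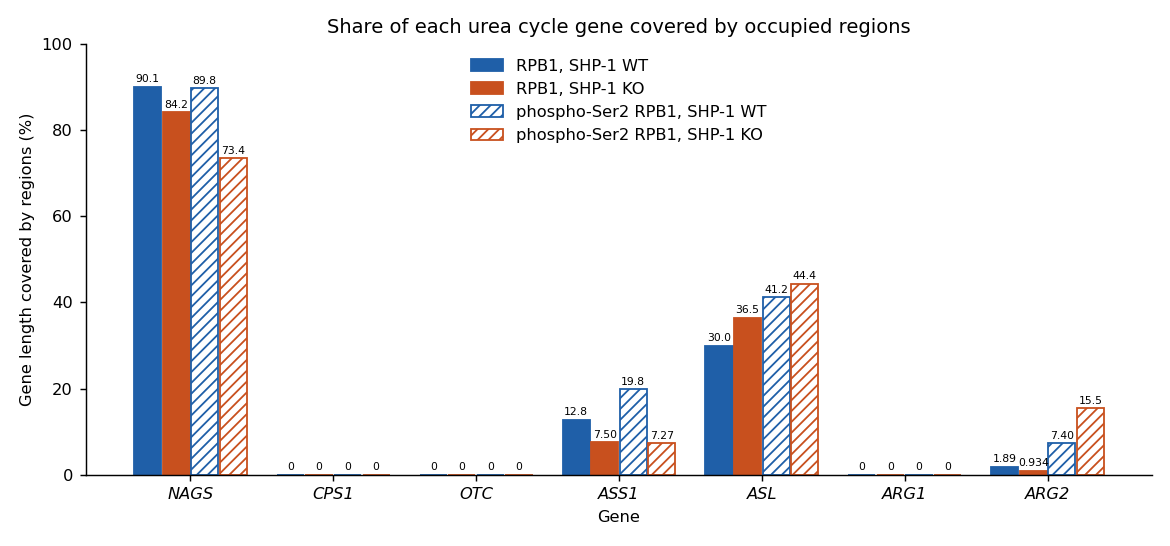
Bars give the percent of each gene's length covered by the union of regions (y axis) for the 7 genes (x axis) in the 4 lists. NAGS reached 73.4% to 90.1%, CPS1, OTC and ARG1 were at 0, and the phospho-Ser2 RPB1 share was lower in SHP-1 KO cells for NAGS and ASS1 and higher for ASL and ARG2.

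At the gene end, the KO to WT ratio of phospho-Ser2 RPB1 was 1.79 for ASL, 1.35 for ARG2, 1.12 for ASS1 and 0.621 for NAGS. The median over 4358 coding genes with an end region in both lists was 0.941, with quartiles of 0.772 and 1.14. ASL lay at or above 97.6% of these genes and NAGS at or above 9.09%, while ASS1 and ARG2 lay between them, at or above 72.4% and 88.2%. The summits behind the ASL and NAGS ratios lay beyond the gene end. Those of ASL are within ENSG00000249319, and TMEM101 runs toward those of NAGS, so neither ratio can be credited to the member alone. The same holds for the ARG2 ratio, since both of its summits lie within VTI1B, on the reverse strand. The ASS1 ratio set the KO region of intron 13 (8.39) against the WT region beyond the gene end (7.52), which are different sites. Beyond the end alone, ASS1 had 7.52 in WT and 5.24 in KO cells, the other direction, and in intron 13 it had 7.34 and 8.39. By the promoter annotation, the ratio was 1.61 for ARG2, 1.15 for ASL, 1.04 for ASS1 and 0.954 for NAGS, beside a median of 0.958 over 7191 genes. After division by the median, 1 of 4 was higher by at least 1.5 times, ARG2, beside 10.4% of genes, and 0 of 4 was lower by as much, beside 11.0%. These promoter annotations refer to internal transcript starts for ASS1, ASL and ARG2. In ASS1 the strongest promoter regions were 2 different sites, with the summit 32658 bp (WT) and 13428 bp (KO) after the main start. The ratio turned to 0.848 with the highest −log10 q of the promoter regions in place of fold enrichment. This set 6.45 in WT against 5.47 in KO cells, both at the KO site, so that the WT region changed with the measure. At the KO site, the overlapping WT region had 4.30 and the KO region 4.50. The strongest promoter region had its summit 25610 bp (WT) and 25285 bp (KO) after the main start in ARG2 and 13262 bp and 12914 bp after it in ASL. They are therefore no measure of the main start. Those of ASL also lie within ENSG00000249319 and cannot be credited to ASL alone.

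Across the members, a KO region overlapped 26 of the 38 RPB1 regions of WT cells by at least 1 bp, beside 61.9% of all WT regions. Among these 26, 13 had a lower fold enrichment in KO cells, 50.0%, beside 65.2% of the overlapped regions of the whole list. The median KO to WT ratio was 1.02 over the 26 and 0.856 over the whole list. Regions at the 4 main starts were lower in KO cells, whereas along ASS1 2 of 7 and along ASL 6 of 12 overlapped regions were lower, the starts included. In ASS1 the 2 lower regions were the strong ones, at the start and close to the 3′ end. The other overlapped ASS1 regions were weak, with a fold enrichment of 3.92 to 5.01 in WT cells. These ratios leave out WT regions without a KO region, and only 7 of 16 ASS1 regions were overlapped. A weak region that was not called in KO cells is thus not counted as lower. Promoter regions were also 12 of the 38, beside 44.6% of the whole list. The contrast between starts and gene bodies therefore does not measure a change along the genes. For phospho-Ser2 RPB1, a KO region overlapped 29 of 57 WT regions, beside 52.2% of all WT regions. By gene, CPS1 was the 1 of 6 with an RPB1 region in WT and none in KO cells, beside 7.52% of coding genes with a WT region, and 0 of 5 had a KO region alone, beside 3.73%. For phospho-Ser2 RPB1 these counts were 0 of 4, beside 12.8%, and 0 of 4, beside 4.28%.

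Genes that feed or use the cycle were counted from a list of 27, made up of transporters and enzymes that supply ammonia, bicarbonate and aspartate, users of arginine and ornithine, and liver transcription factors. An RPB1 region was assigned to 23 of 27 in both cell lines, beside 57.7% (WT) and 55.4% (KO) of coding genes. A phospho-Ser2 RPB1 region was assigned to 21 in WT and 22 in KO cells, beside 51.8% and 47.2%. Of the supply genes, 9 of 11 had a region in each of the 4 lists, and all 3 aspartate and fumarate genes did, beside the same shares of coding genes. ODC1, the first enzyme of polyamine synthesis from ornithine, was the gene that had an assigned region in a single cell line for an antibody, a phospho-Ser2 RPB1 promoter region in KO cells with a fold enrichment of 3.75. This rests in part on the assignment, since regions assigned to other genes covered 4.35% of ODC1 in the phospho-Ser2 list of WT cells, and 9.28% (WT) and 14.8% (KO) in the RPB1 lists. SLC25A15, which carries ornithine into mitochondria, had an RPB1 promoter value of 61.8 in WT and 50.5 in KO cells, a ratio of 0.818. SLC25A13, the aspartate and glutamate carrier citrin, had values of 47.4 and 24.3, a ratio of 0.512. Phospho-Ser2 RPB1 at the SLC25A13 promoter was 7.25 in WT and 3.20 in KO cells.

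Over the 22 list genes with an RPB1 promoter region in both lists, the median KO to WT ratio was 0.778, and 19 were below 1. Most of all 11250 genes were below 1 too, with an upper quartile of 0.894, so this count is not particular to the list. After division by the median of all genes, NOS3, an endothelial nitric oxide synthase that uses arginine, was the 1 of 22 lower by at least 1.5 times (12.2 in WT and 4.22 in KO cells). GOT1, the cytosolic aspartate aminotransferase, was the 1 of 22 that was higher (27.9 in WT and 39.9 in KO cells). For phospho-Ser2 RPB1, the median ratio over 17 list genes was 0.984, with SLC25A13 and HNF4A lower and OAT and GLUL higher by at least 1.5 times. NOS3, GOT1, HNF4A, OAT and GLUL are named after their values were seen. The same shares over all genes are 9.29% and 10.3% for RPB1 and 11.0% and 10.4% for phospho-Ser2 RPB1.

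**Figure D5:**
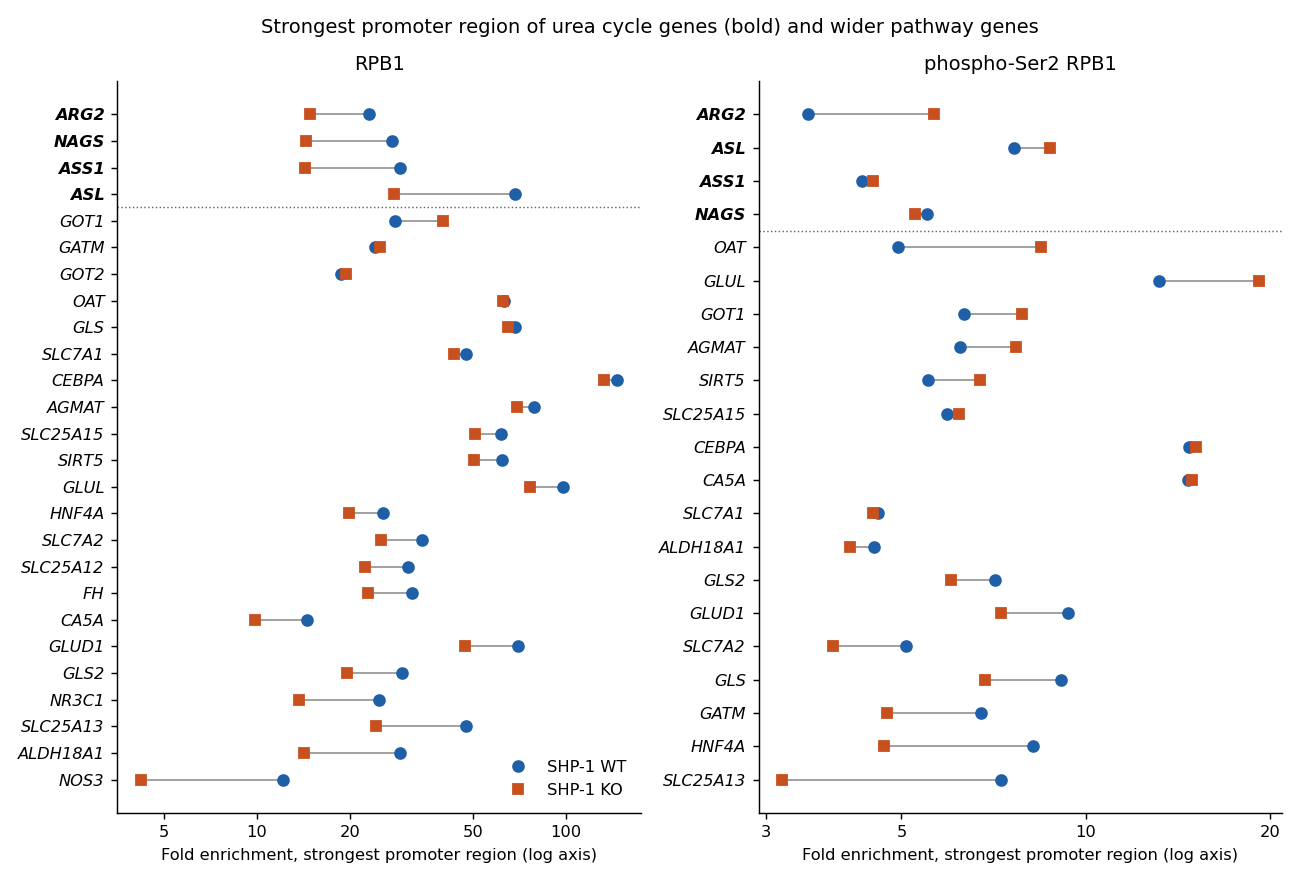
Fold enrichment at the strongest promoter region (x axis, log scale) is shown for each gene (y axis) in SHP-1 WT (blue circles) and SHP-1 KO cells (orange squares), with the urea cycle genes in bold above the dotted line and the wider list below it. For RPB1 the bold genes lie at ratios of 0.408 to 0.646, beside 0.348 to 1.43 in the wider list; for phospho-Ser2 RPB1 the promoter of ASS1, ASL and ARG2 is an internal start.

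NAGS, the most fully covered of the 7, was set beside all coding genes by the percentile of the covered share in the 4 lists. The closest genes were WDR24, CCND1 and APEH, with a largest difference in percentile of 0.300, 0.465 and 0.530. The NAGS percentiles were 97.8 and 97.7 for RPB1 and 97.8 and 96.4 for phospho-Ser2 RPB1 in WT and KO cells. ASL followed, at 89.7 and 92.5 for RPB1 and 89.9 and 92.3 for phospho-Ser2 RPB1. ASS1 lay at 82.2 and 79.1 for RPB1 and 82.0 and 75.1 for phospho-Ser2 RPB1, and ARG2 at 57.3, 51.4, 71.0 and 82.6 in the same order. A short gene reaches a high covered share with few regions, and NAGS, of 4447 bp, is the shortest of the 7, so that the covered share is not a measure of RNA pol II per base. ASS1 has 14 processed copies in the genome, and none of them overlapped a region in any list.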

How the data were processed

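RPB1 and phospho-Ser2 RPB1 ChIP-seq of HepG2 cells was analysed from 4 region lists, 1 for each antibody and cell line; the 2 input libraries were not analysed here. Per the labels, the authors used Trimmomatic for trimming and BWA for alignment (hg38), and called narrow peaks with MACS2 against input; versions are not given in the sources used here. Each deposited list gives position, fold enrichment over input (a ratio), the −log10 q-value and the authors' annotation with an assigned gene. A deposited table of the authors' own comparison of RPB1 reads between the cell lines, with region p-values and directions, was not used. All regions lay inside hg38 chromosomes.

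Regions were taken by gene symbol and ranked by fold enrichment within their list. Because MACS2 fold enrichment is scaled per library and lists were called separately, a deeper library can yield more regions. Overlap meant at least 1 bp. Gene spans were canonical transcripts of GENCODE release 44. Named were the 7 genes, list genes with a region in a single cell line, SLC25A15, SLC25A13, the 3 genes most like the most covered gene, and neighbors at the genes; others are marked. The members and lists were chosen with earlier results of these data known. Alternatives were −log10 q limits of 2 and 5, assignment by position, merged intervals, reciprocal overlap, ratios of −log10 q and ratios divided by the median. Functions were tested on simulated intervals. Python 3.11.15, pandas 2.3.3, NumPy 2.4.6 and matplotlib 3.10.9 were used.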

Additional observations from a re-analysis of the deposited data

How the results depend on the processing

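With 1 library for each antibody and cell line, no result has a replicate check, and depth is unknown. At the stricter limit of 5 on the −log10 q-value, 19 (RPB1 WT), 22 (RPB1 KO), 25 (phospho-Ser2 WT) and 23 (phospho-Ser2 KO) regions of the members remained. The share of the members' summed length covered then fell from 5.47% to 4.26%, from 4.72% to 3.92%, from 7.93% to 5.01% and from 6.45% to 4.69% in the same order, and 15 WT regions were overlapped by a KO region for RPB1 and 15 for phospho-Ser2 RPB1. With a reciprocal overlap of 50%, 13 RPB1 and 16 phospho-Ser2 RPB1 regions of WT cells were overlapped. Counted within 1 kb of the main start, 2 genes (WT) and 1 gene (KO) had a phospho-Ser2 RPB1 promoter region, against 4 by annotation.

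The median KO to WT ratio of the 4 members at the strongest promoter region was 0.510 for RPB1 and 1.09 for phospho-Ser2 RPB1. It was 0.354 and 1.07 with −log10 q in place of fold enrichment, and 0.701 and 1.14 after division by the median of all genes. In alternatives chosen after seeing the data, it was 0.802 and 1.23 for regions within 3 kb of the gene end. With that window beginning 2 kb before the end, the medians were the same, but ASS1 fell to 0.214 for RPB1, since the KO summit lay outside the window. Within 1 kb of the main start, the phospho-Ser2 RPB1 ratio rested on NAGS alone and turned to 0.954. With −log10 q, the phospho-Ser2 RPB1 ratio of ASS1 turned to 0.848, with another WT region taken as the strongest. No paired analysis was possible because each group has 1 library.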
